A study of Mus musculus with 13 samples.

Results

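The comparison described here was between irradiated mouse submandibular glands that had received a neurturin vector and irradiated glands that had received a green fluorescent protein vector. Members were the libraries labelled PreIR-NTN (5, called IR_NTN here) and PreIR-GFP (5, called IR_GFP here), which makes 10 of the 13 libraries of the series. The other 3 libraries came from glands that were not irradiated (NonIR) and entered the fit to help estimate the spread. All mice were of the strain given as CH3 and 1 year old, and tissue was taken 300 days after treatment. Per the labels' protocols, AAV2-GFP or Cere-120 was injected 10 days before irradiation. Cere-120 is an adeno-associated virus of serotype AAV2 that carries neurturin. Both arms therefore share age, irradiation, an injection and the serotype, and differ by label in the transgene. The radiation dose, the promoter of each vector, the sex of the mice and any vector given to NonIR glands are details that the labels leave out. The labels do not tie libraries to separate animals, so p-values measure the spread between libraries, which may in part be technical.

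Neurturin is a ligand of the GDNF family. It binds the co-receptor Gfra2, which passes the signal to the receptor tyrosine kinase Ret, and it supports parasympathetic neurons. The submandibular gland is driven to secrete saliva by parasympathetic nerves acting on muscarinic receptors of its acinar cells. In rodents its ducts also hold a granular convoluted tubule segment that stores growth factors and kallikreins. Irradiation of salivary glands is known for loss of saliva and for late changes in stroma and immune cells.

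The tissue label was checked on the gland's own transcripts. Prol1, the mucin of mouse submandibular acini also called Muc10, was between 27288 and 67171 CPM in the 13 libraries, where CPM is the read count scaled to a common library size with TMM factors. Bhlha15, the acinar transcription factor also called Mist1, was between 140.1 and 272 CPM. The vectors could not be checked in the same way. The deposited table has entries for EGFP and for AAV2 sequence, and both held 0 reads in all 13 libraries, which allows up to 3 reads in each. Whether the GFP coded by the vector matches that EGFP entry was not tested. No entry is named for the neurturin of Cere-120, and whether its transcript would be counted under mouse Nrtn was not tested.

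Nrtn, the mouse neurturin gene, was at 2.68, 7.98, 10.9, 6.95 and 2.5 CPM in IR_GFP replicates 1 to 5 and at 10.9, 3.28, 4.81, 6.89 and 12.8 CPM in IR_NTN replicates 1 to 5. The groups overlapped throughout, and the log2 fold change of IR_NTN over IR_GFP was 0.32 (SE 0.49, edgeR quasi-likelihood with Benjamini-Hochberg adjusted p = 0.991). Leaving out 1 library at a time moved that value between 0.061 (without IR_NTN 5) and 0.62 (without IR_GFP 3). NonIR libraries held 2.33, 5.15 and 7.11 CPM. Gfra2, the preferred co-receptor of neurturin, was low in every library, at 1.31, 0.330, 0.938, 0.337 and 1.07 CPM in IR_GFP and 0.645, 0.176, 0.244, 0.435 and 0.238 CPM in IR_NTN, with a log2 fold change of −1.18 (SE 0.49, edgeR adjusted p = 0.760). Those levels rest on 58 reads over the 5 IR_GFP libraries and 24 reads over the 5 IR_NTN libraries. Ret, the signalling receptor, was at 21.5, 23.7, 27.8, 35.9 and 31.6 CPM in IR_GFP and 31.8, 28.1, 24.8, 37.6 and 27 CPM in IR_NTN, with a log2 fold change of 0.088 (SE 0.18; −0.0088 without IR_NTN 4). Gfra3, the co-receptor of artemin, had a log2 fold change of 0.0090 (SE 0.20), whose sign depended on the library left out (−0.11 without IR_GFP 2 and 0.12 without IR_GFP 3). The other ligands and co-receptors, Gdnf, Artn, Pspn, Gfra1 and Gfra4, were below the filter on low counts. Of the 17 genes listed for this ligand and receptor family, 10 were tested, 6 were higher and 4 lower in IR_NTN, and none passed.

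Libraries held 9724304 reads (IR_GFP 1) to 16771004 reads (IR_GFP 4). In each arm a few secretory transcripts took a large share of reads. The 10 most abundant genes took 29.7% to 55.5% of reads in IR_GFP and 39.5% to 50.6% in IR_NTN, and TMM factors, which correct for such shares, ran from 0.768 to 1.42 and from 0.844 to 1.18. The 3 libraries with a factor above 1.1 were IR_GFP 1, IR_GFP 5 and IR_NTN 2, so the IR_GFP arm was the more varied of the pair. IR_GFP 2 held skeletal muscle transcripts: Ckm, the muscle creatine kinase, was at 1.31, 43.9, 1.64, 1.89 and 2.67 CPM in IR_GFP replicates 1 to 5 and at 1.58, 2.29, 1.14, 1.38 and 0.872 CPM in IR_NTN. IR_GFP 5 was the highest library for lymph node markers, with a summed level over 12 markers of 22.7 CPM, against at most 10.2 CPM in IR_NTN. Markers of neighbouring fat varied in both arms, with a summed level of 43.5 to 140 CPM in IR_GFP and 12.5 to 248 CPM in IR_NTN.

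Of 14727 genes tested, 3 passed an adjusted p of 0.05, which is 0.0204% of the genes, and all 3 were lower with the neurturin vector (Serping1, Dpt and Pla1a). Over all genes 6969 were higher and 7758 lower in IR_NTN, with a median log2 fold change of −0.014. At an unadjusted p under 0.05 there were 549 genes lower (3.73%) and 347 higher (2.36%). The 5 IR_NTN libraries lay entirely below the 5 IR_GFP libraries for 106 genes (0.72%) and entirely above them for 58 (0.394%), which is written below as apart. Counts of list members below are to be read against these shares. Simulated counts with the spread of these libraries gave an idea of reach: of 50 genes set to a 2-fold change, 27 were called, and of 50 set to a 3-fold change, 46 were called. Only genes of at least 1 CPM were changed, in sets of 50 at 1.5, 2, 3 and 4-fold together, and 6 unchanged genes were also called. With that many genes changed and no shift shared by the genes of a library, these shares may overstate the reach here.

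**Figure D1:**
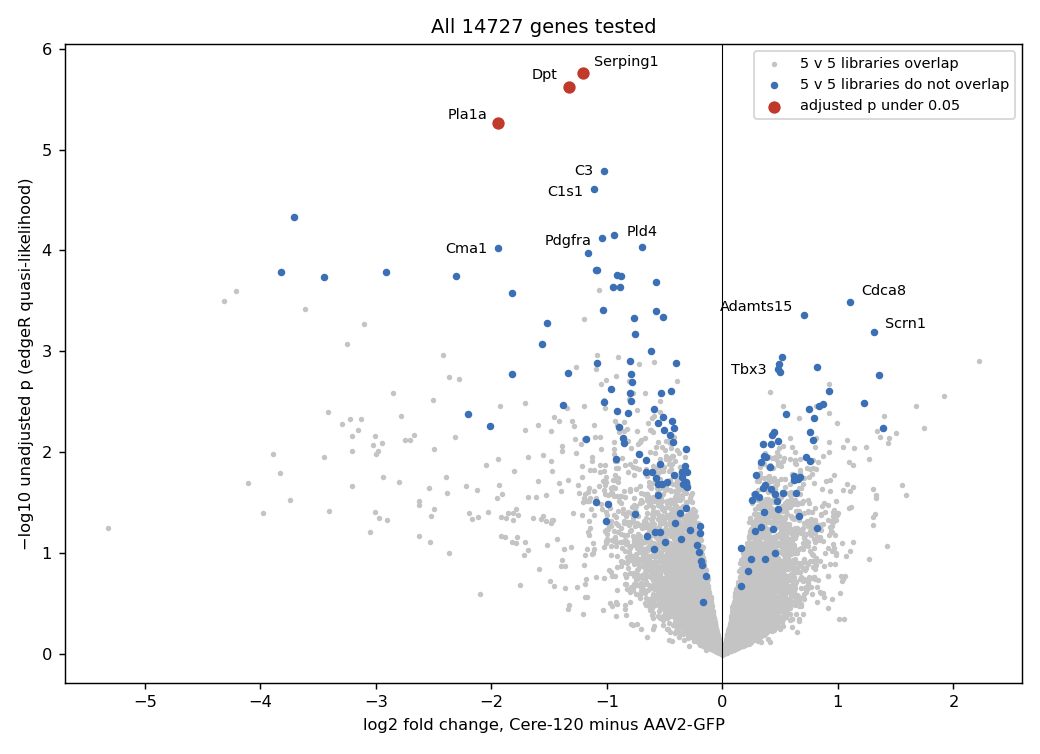
Log2 fold change (Cere-120 minus AAV2-GFP, horizontal axis) against −log10 of the unadjusted p (vertical axis) for each of the 14727 genes tested. Red points are the 3 genes with an adjusted p under 0.05, all on the lower side, blue points are genes whose 5 IR_NTN and 5 IR_GFP libraries do not overlap, and grey points are the rest.

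Serping1 encodes the C1 inhibitor, a secreted protein that blocks the first proteases of the classical complement pathway. It was at 63.1, 49.4, 52.2, 89.8 and 53.2 CPM in IR_GFP replicates 1 to 5 and at 23.4, 34, 24.9, 23.7 and 27.1 CPM in IR_NTN replicates 1 to 5. The highest IR_NTN library was below the lowest IR_GFP library. Serping1 fell by 1.21 in log2 terms (SE 0.16; edgeR adjusted p = 0.0175). The group levels went from 61.5 ± 16.6 to 26.6 ± 4.35 CPM (mean ± SD, n = 5 in each group). NonIR libraries held 40.9, 42.7 and 47.3 CPM, also above every IR_NTN library. Against NonIR the log2 fold change was 0.49 in IR_GFP and −0.71 in IR_NTN, and neither passed (edgeR adjusted p = 0.476 and 0.369).

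Dpt encodes dermatopontin, a small matrix protein made by fibroblasts that binds decorin. It was at 22.9, 11, 15, 18.4 and 18.8 CPM in IR_GFP and at 5.52, 5.98, 8.96, 6.74 and 7.06 CPM in IR_NTN, again with no overlap. Its transcript fell by 1.33 in log2 terms (SE 0.18; edgeR adjusted p = 0.0175), with a change from 17.2 ± 4.47 to 6.85 ± 1.33 CPM (mean ± SD, n = 5 in each group). The 3 NonIR libraries, at 13.7, 14.1 and 15.9 CPM, lay within the range of IR_GFP. Pla1a encodes a secreted phospholipase that releases lysophosphatidylserine. It was at 2.76, 1.52, 1.95, 2.23 and 1.66 CPM in IR_GFP and at 0.358, 0.469, 0.652, 0.580 and 0.555 CPM in IR_NTN. Pla1a fell by 1.94 in log2 terms (SE 0.29; edgeR adjusted p = 0.0268). It rests on 147 reads over IR_GFP and 36 over IR_NTN, which makes it the least deeply counted of the 3. The comparisons of each arm with NonIR share libraries with this one and are given side by side only.

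The 3 calls depended on which libraries entered the fit. Over 26 alternative settings each of the 3 genes was lower in IR_NTN in 26, which is largely fixed by their non-overlapping libraries. Leaving out 1 library at a time, Serping1 missed the threshold in 5 of 13 fits, Dpt in 6 and Pla1a in 9. Serping1 missed it without IR_GFP 1 (adjusted p = 0.0720) and without IR_NTN 1, 3, 4 or 5 (up to 0.104). Dpt missed it without IR_GFP 1 or 5 or without IR_NTN 1, 2, 4 or 5 (up to 0.104). Pla1a missed it without IR_GFP 1, 3 or 5, without any 1 of the 5 IR_NTN libraries or without NonIR 3 (up to 0.123). With only the 10 irradiated libraries in the fit, edgeR called 0 genes, with 909 at an unadjusted p under 0.05, and the 3 genes shared an adjusted p of 0.0794. On the 10 irradiated libraries the log2 fold changes were −1.20 for Serping1, −1.33 for Dpt and −1.94 for Pla1a. DESeq2 called 38 genes, these 3 among them, and limma-voom called 0 with 833 at an unadjusted p under 0.05.

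**Figure D2:**
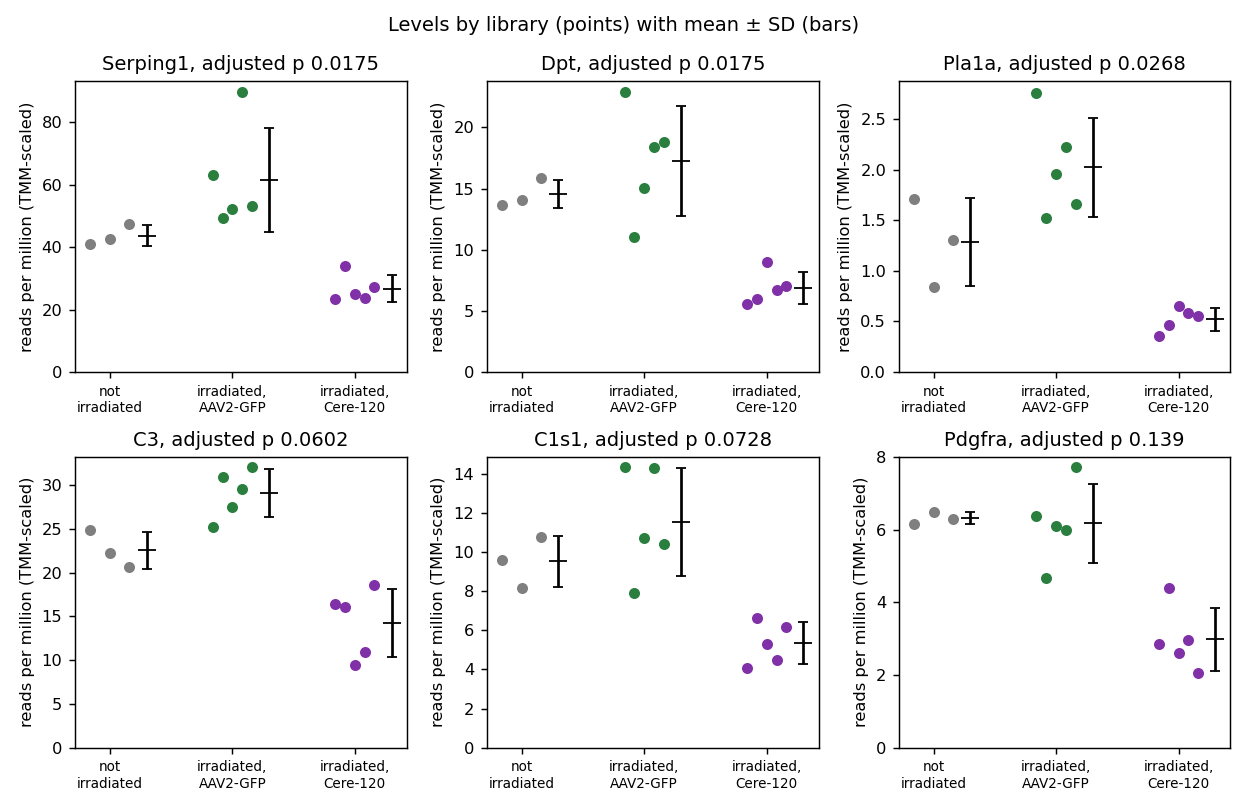
TMM-scaled CPM in each library (points) with mean ± SD (bars) for the 3 genes that passed (Serping1, Dpt, Pla1a) and for C3, C1s1 and Pdgfra, which did not; the vertical axis of each panel starts at 0. In all 6 panels every IR_NTN library lies below every IR_GFP library and below every NonIR library.

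On GRCm38, Serping1 (ENSMUSG00000023224) lies on chromosome 2 from 84765387 to 84775444 (minus strand), Dpt (ENSMUSG00000026574) on chromosome 1 from 164796644 to 164824266 (plus strand) and Pla1a (ENSMUSG00000002847) on chromosome 16 from 38396117 to 38433145 (minus strand). All 3 are annotated as protein coding, and no exon of theirs overlaps an exon of another gene in GENCODE release M21. The promoter of Dpt is shown because it is a gene that passed and has an entry in the RefSeq promoter table (GRCm38.p6). The sequence is the 250 bases before the RefSeq transcription start, plus strand, chr1:164796413-164796662. This window ends past the GENCODE start at 164796644, so its last bases lie within the gene as GENCODE places it. Capitals mark the single match to a gamma-activated site.
Dpt: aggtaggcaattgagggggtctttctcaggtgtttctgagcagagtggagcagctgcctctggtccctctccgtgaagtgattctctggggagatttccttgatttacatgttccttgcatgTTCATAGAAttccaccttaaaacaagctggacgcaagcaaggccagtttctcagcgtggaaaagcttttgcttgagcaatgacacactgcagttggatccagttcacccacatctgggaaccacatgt
That motif, TTCNNNGAA, is bound by STAT factors and was searched on both strands, where it is its own reverse complement. It starts 128 bases before the RefSeq start site of Dpt. A match to it was found in 7.02% of the 32851 promoters of the table. An interferon element (GAAA, any 2 bases, GAAA; in 2.98% of promoters), a TATA box (TATAAA; 12.4%) and the NF-kappaB consensus (7.25%) had no match in the Dpt window. None of the 4 motifs had a match in the same window of C3, C1s1 (first of its 2 entries) or Pdgfra, which were chosen for this search after their values were seen. A match is a run of letters and no evidence of binding.

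Complement is a cascade of plasma and tissue proteases that opsonises cells and recruits myeloid cells. Besides Serping1, the next genes by p were also of this pathway. C3, the central component, was at 25.2, 30.9, 27.4, 29.5 and 32.1 CPM in IR_GFP and 16.4, 16.1, 9.45, 10.9 and 18.6 CPM in IR_NTN, with no overlap. Its log2 fold change was −1.02 (SE 0.17, edgeR adjusted p = 0.0602). C1s1, a protease that the C1 inhibitor blocks, was at 14.4, 7.92, 10.7, 14.3 and 10.4 CPM and 4.09, 6.63, 5.3, 4.5 and 6.19 CPM, also with no overlap, a log2 fold change of −1.11 (SE 0.19, edgeR adjusted p = 0.0728). Reads of C1s1 may be shared with its near-identical copy C1s2. C3ar1, the receptor of the C3a fragment, was at 6.96, 7.39, 5.4, 6.14 and 12.2 CPM and 2.94, 4.4, 3.34, 3.48 and 3.65 CPM, again apart, with a log2 fold change of −1.09 (adjusted p = 0.143). C3 and C1s1 lay below all NonIR libraries in IR_NTN, whereas C3ar1 overlapped them.

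Of 12 complement activation genes tested, 11 were lower in IR_NTN and 1 higher, with a median log2 fold change of −0.46, beside −0.014 over all genes. None passed, 6 had an unadjusted p under 0.05 on the lower side and 2 did not overlap (C3 and C1s1). C4b, which may share reads with a near-identical copy, stood at −0.85, and C1qc, a chain of C1q made by macrophages, at −0.46. Of 13 regulators and receptors tested, 10 were lower, 1 of them past the threshold (Serping1), and 3 were higher, with a median of −0.52. Among them Vtn, vitronectin, stood at −0.93, with overlapping libraries. IR_GFP 4 was the highest library for the activation list, and without it 9 of 12 were lower at a median of −0.43. The median of the regulators and receptors was −0.29 without IR_GFP 5 and −0.33 without IR_GFP 1. Leaving out IR_GFP 1 and IR_GFP 2 together, 11 of 12 activation genes and 9 of 13 regulators and receptors were lower, with medians of −0.41 and −0.40.

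Fibroblast transcripts had the most members with non-overlapping libraries of all the lists. Of 22 tested, 20 were lower and 2 higher in IR_NTN, at a median log2 fold change of −0.52. Dpt passed, 11 had an unadjusted p under 0.05 on the lower side, and 6 did not overlap. Col1a1, a collagen chain, stood at −0.053 (adjusted p = 0.998), and its sign changed in 5 of 26 alternative settings. The 2 higher genes were Osr1 at 0.22 and Cd34 at 0.12. The summed level of the 25 listed genes overlapped, at 612 to 1192 CPM in IR_GFP and 590 to 778 CPM in IR_NTN. Pdgfra, the platelet-derived growth factor receptor that marks fibroblasts, was at 6.38, 4.69, 6.1, 6 and 7.73 CPM in IR_GFP and 2.87, 4.4, 2.61, 2.97 and 2.06 CPM in IR_NTN. The groups were apart, with a log2 fold change of −1.04 (SE 0.20, edgeR adjusted p = 0.139), and NonIR libraries were at 6.16, 6.5 and 6.29 CPM. Dcn, the proteoglycan decorin, was at 241, 160.2, 192, 164 and 203 CPM and 95.3, 135, 113, 117 and 134 CPM, apart again, at −0.69 (SE 0.13, adjusted p = 0.139). Smoc2, a matrix protein of fibroblasts, was at 13.3, 8.51, 13, 12 and 12 CPM and 6.31, 8.45, 4.32, 7.61 and 8.01 CPM, at −0.76 (adjusted p = 0.260). The lowest IR_GFP library for Pdgfra, Dcn and Smoc2 was IR_GFP 2, which came close to the highest IR_NTN library for Pdgfra and Smoc2.

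Lum, the proteoglycan lumican, reached 57.7 CPM in IR_GFP 1 and was between 16.9 and 27.5 CPM in the other 4 IR_GFP libraries, with 9.68 to 18.4 CPM in IR_NTN and a log2 fold change of −1.09 (−0.71 without IR_GFP 1). IR_GFP 1 was also the highest library for the fibroblast list as a whole. Without IR_GFP 1 and IR_GFP 2, 19 of 22 fibroblast genes were lower at a median of −0.35. In these whole-gland libraries, fewer cells of a type and less RNA per cell cannot be told apart.

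Extracellular matrix and remodelling genes leaned the same way by count but with smaller values. Of 32 tested, 27 were lower and 5 higher, at a median of −0.24, and none passed. The median was −0.094 without IR_GFP 1. Without IR_GFP 1 and IR_GFP 2 the split was 16 lower to 16 higher and the median −0.042. Mmp2, a gelatinase, was at 9.72, 9.44, 7.82, 6.14 and 5.59 CPM in IR_GFP and 4.52, 2.93, 2.61, 3.05 and 5.16 CPM in IR_NTN, apart, with a log2 fold change of −1.08 (SE 0.22, adjusted p = 0.143). Mmp3, stromelysin, stood at −1.07 (adjusted p = 0.154) and Fbn1, fibrillin, at −1.08 (adjusted p = 0.371), both with overlapping libraries. The aggrecanase-family protease Adamts15 went the other way. It was at 8.63, 6.99, 9.15, 8.5 and 7.96 CPM in IR_GFP and 13.6, 12.6, 11.8, 14.4 and 15.1 CPM in IR_NTN, apart, with a log2 fold change of 0.71 (SE 0.16, adjusted p = 0.205). Cybrd1, a ferric reductase outside these lists, was at 9.64, 7.79, 7.19, 8.63 and 8.8 CPM and 2.8, 2.35, 5.54, 4.13 and 4.04 CPM, apart, at −1.16 (adjusted p = 0.141).

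**Figure D3:**
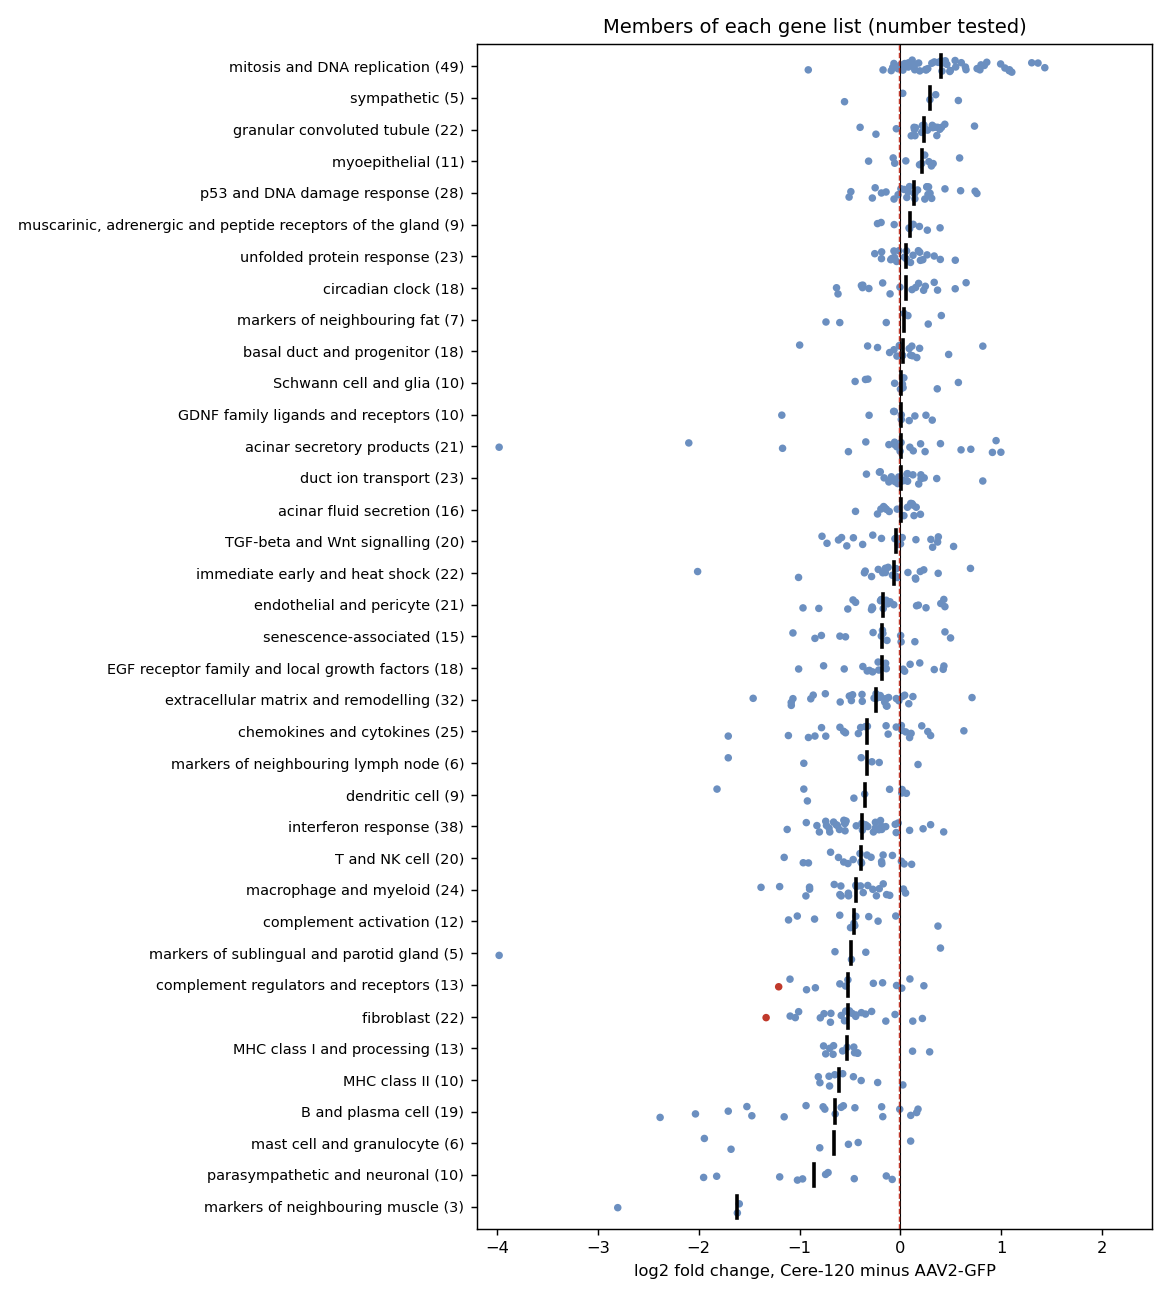
Log2 fold change (Cere-120 minus AAV2-GFP) of every tested member of each gene list (points), with the list median (black bar), the median of all genes (dashed red line) and red points for genes with an adjusted p under 0.05. Muscle, neuronal, mast cell, B cell, antigen presentation and fibroblast lists have the lowest medians and mitosis the highest.

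Macrophage and myeloid transcripts were lower for 22 of 24 genes tested, at a median log2 fold change of −0.44, with 12 at an unadjusted p under 0.05 and none past the adjusted threshold. The summed level of the 26 listed genes was 258 to 367 CPM in IR_GFP, 182 to 250.4 CPM in IR_NTN and 245 to 263 CPM in NonIR. The 2 vector arms did not overlap in that sum, nor in that of the complement activation list (111 to 149 CPM in IR_GFP, 68.2 to 103 CPM in IR_NTN). They did overlap in the sums of the fibroblast, dendritic cell, mast cell and granulocyte, and B and plasma cell lists. Leaving out any 1 library or the libraries IR_GFP 1 and 2 kept the median between −0.50 and −0.38.

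Pld4, a lysosomal exonuclease of myeloid cells, was at 13.5, 16, 10.9, 19.2 and 16.6 CPM in IR_GFP and 7.53, 9.38, 5.38, 9.64 and 7.85 CPM in IR_NTN, apart, with a log2 fold change of −0.94 (SE 0.18, adjusted p = 0.139). Mpeg1, a pore-forming protein of macrophages, was at 10.1, 9.77, 10.4, 10.7 and 9.75 CPM and 6.52, 8.5, 7.74, 7.32 and 7.22 CPM, apart, at −0.44 (adjusted p = 0.488). The IR_GFP values of Mpeg1 lay within a narrow range, so a small difference separated the arms. Lyz2, the macrophage lysozyme, which may share reads with Lyz1, was at 70.7, 53.6, 32.1, 25 and 69.6 CPM and 24.4, 22.1, 17.5, 17.6 and 27.8 CPM, at −1.20 (adjusted p = 0.208), with IR_GFP 4 inside the IR_NTN range. Adgre1, which codes for the F4/80 antigen, was at 52.9 CPM in IR_GFP 5 and between 12.8 and 15.2 CPM in the other 4 IR_GFP libraries, against 7.33 to 9.72 CPM in IR_NTN. Its log2 fold change of −1.38 was −0.73 without IR_GFP 5. Cd68, a lysosomal marker, stood at −0.44, and Csf1r, the receptor that macrophages need to survive, at −0.11 (SE 0.22), a value that ran from −0.26 without IR_NTN 1 to −0.019 without IR_NTN 4.

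Dendritic cell markers were lower for 6 of 9 tested, at a median of −0.35. That median was −0.16 without IR_NTN 4, −0.18 without IR_GFP 5, −0.21 without IR_NTN 2 and −0.050 under the stricter filter. The lectin Cd209a was at 7.61, 1.58, 1.8, 1.21 and 2.79 CPM in IR_GFP and 0.358, 1.11, 0.896, 0.798 and 1.03 CPM in IR_NTN, apart, at −1.82 (adjusted p = 0.411; −1.11 without IR_GFP 1). Of 22 mast cell and granulocyte markers only 6 had enough reads to test, and 5 of them were lower. Cma1, the mast cell chymase, was at 1.74, 1.32, 1.41, 1.62 and 1.9 CPM and 0.502, 0.117, 0.489, 0.363 and 0.634 CPM, apart, with a log2 fold change of −1.94 (SE 0.37, adjusted p = 0.139). Tpsb2, a mast cell tryptase that may share reads with a near-identical copy, was at 0.798, 0.462, 0.938, 0.607 and 0.773 CPM and 0.143, 0.235, 0.163, 0 and 0.555 CPM, at −1.68 (adjusted p = 0.669). Both mast cell proteases rest on few reads, 118 and 28 for Cma1 over IR_GFP and IR_NTN.

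B and plasma cell genes were lower for 16 of 19 tested, at a median of −0.65, and none passed or was apart. Jchain, which joins dimeric IgA, was at 1212, 359, 430.4, 67.6 and 604 CPM in IR_GFP and 39.3, 12.8, 162, 75.8 and 223 CPM in IR_NTN, with a log2 fold change of −2.38 (SE 0.92, adjusted p = 0.748). NonIR libraries ran from 67.1 to 452 CPM, so this transcript varied widely within each group. Mzb1, a chaperone of antibody-secreting cells, stood at −1.47 and Cd79a, a signalling chain of surface immunoglobulin, at −0.94 (−0.47 without IR_GFP 5). The light chain gene Igkv14-111 was apart, at 1.45, 0.990, 1.56, 0.270 and 2.85 CPM and 0.0717, 0, 0.0815, 0.145 and 0.238 CPM (adjusted p = 0.116), on 107 reads over IR_GFP and 7 over IR_NTN, and immunoglobulin variable genes are near-identical copies whose reads may be divided among them. Cxcl13, the chemokine that draws B cells, was at 4.81 CPM in IR_GFP 5 and stood at −1.71 (−0.83 without that library). IR_GFP 5 was also the library highest in lymph node markers. Without it the median of the B cell list was −0.33 and that of the lymph node markers went from −0.34 to 0.039, and their part in the result was not tested.

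T and NK cell genes were lower for 17 of 20 tested, at a median of −0.39 (−0.18 without IR_GFP 5 and −0.23 without IR_NTN 3), and none passed. Trbc1, a T cell receptor constant chain with a near-identical partner, stood at −0.91, the cytokine receptor Il7r at −1.15 and Cd3e, of the T cell receptor complex, at −0.47 (−0.17 without IR_GFP 5 and −0.82 without IR_NTN 4). Levels were low, with Cd3e at 0.580, 0.990, 0.938, 1.01 and 1.78 CPM in IR_GFP and 0.860, 0.645, 0.489, 1.45 and 0.397 CPM in IR_NTN.

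Antigen presentation and interferon transcripts were lower by count, with 1 library setting much of the size. MHC class II genes were lower for 9 of 10 at a median of −0.61, MHC class I and processing genes for 11 of 13 at −0.53, and interferon response genes for 34 of 38 at −0.38. None of these genes passed. Cd74, the invariant chain, was at 325, 504, 319, 861 and 343 CPM in IR_GFP and 336, 349, 191, 319.7 and 302 CPM in IR_NTN, with IR_GFP 4 far above the rest, and stood at −0.65 (adjusted p = 0.755; −0.31 without IR_GFP 4). H2-Aa, a class II chain, was at 101, 157, 98.3, 242 and 119.5 CPM and 94, 106, 61.4, 89 and 90.2 CPM, at −0.70 (−0.43 without IR_GFP 4). Without IR_GFP 4 the medians were −0.27 for class II, −0.15 for class I and −0.18 for the interferon list, with 28 of 38 interferon genes still lower. The antiviral genes Oasl1 and Oasl2 stood at −0.56 and −0.73, with IR_GFP 4 the highest library for both (−0.47 for Oasl2 without it).

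Of 25 chemokine and cytokine genes tested, 16 were lower and 9 higher, at a median of −0.33, and none passed. Single libraries moved that median, to −0.13 without IR_GFP 1, −0.15 without IR_GFP 4 and −0.20 without IR_GFP 5 or IR_NTN 4, and it was −0.061 without IR_GFP 1 and 2. Tnfsf13b, the B cell survival factor BAFF, was at 4.86, 4.36, 2.74, 3.03 and 5.59 CPM in IR_GFP and 2.29, 2.7, 1.96, 2.47 and 2.54 CPM in IR_NTN, apart, at −0.78 (adjusted p = 0.435). Ccl11, the eosinophil attractant eotaxin, was at 4.42, 2.71, 3.67, 3.03 and 2.5 CPM and 0.717, 1.64, 2.36, 1.74 and 2.22 CPM, apart, at −0.91 (adjusted p = 0.567). Ccl6 stood at −1.11 (adjusted p = 0.608) with 1 IR_NTN library above the lowest IR_GFP library.

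**Figure D4:**
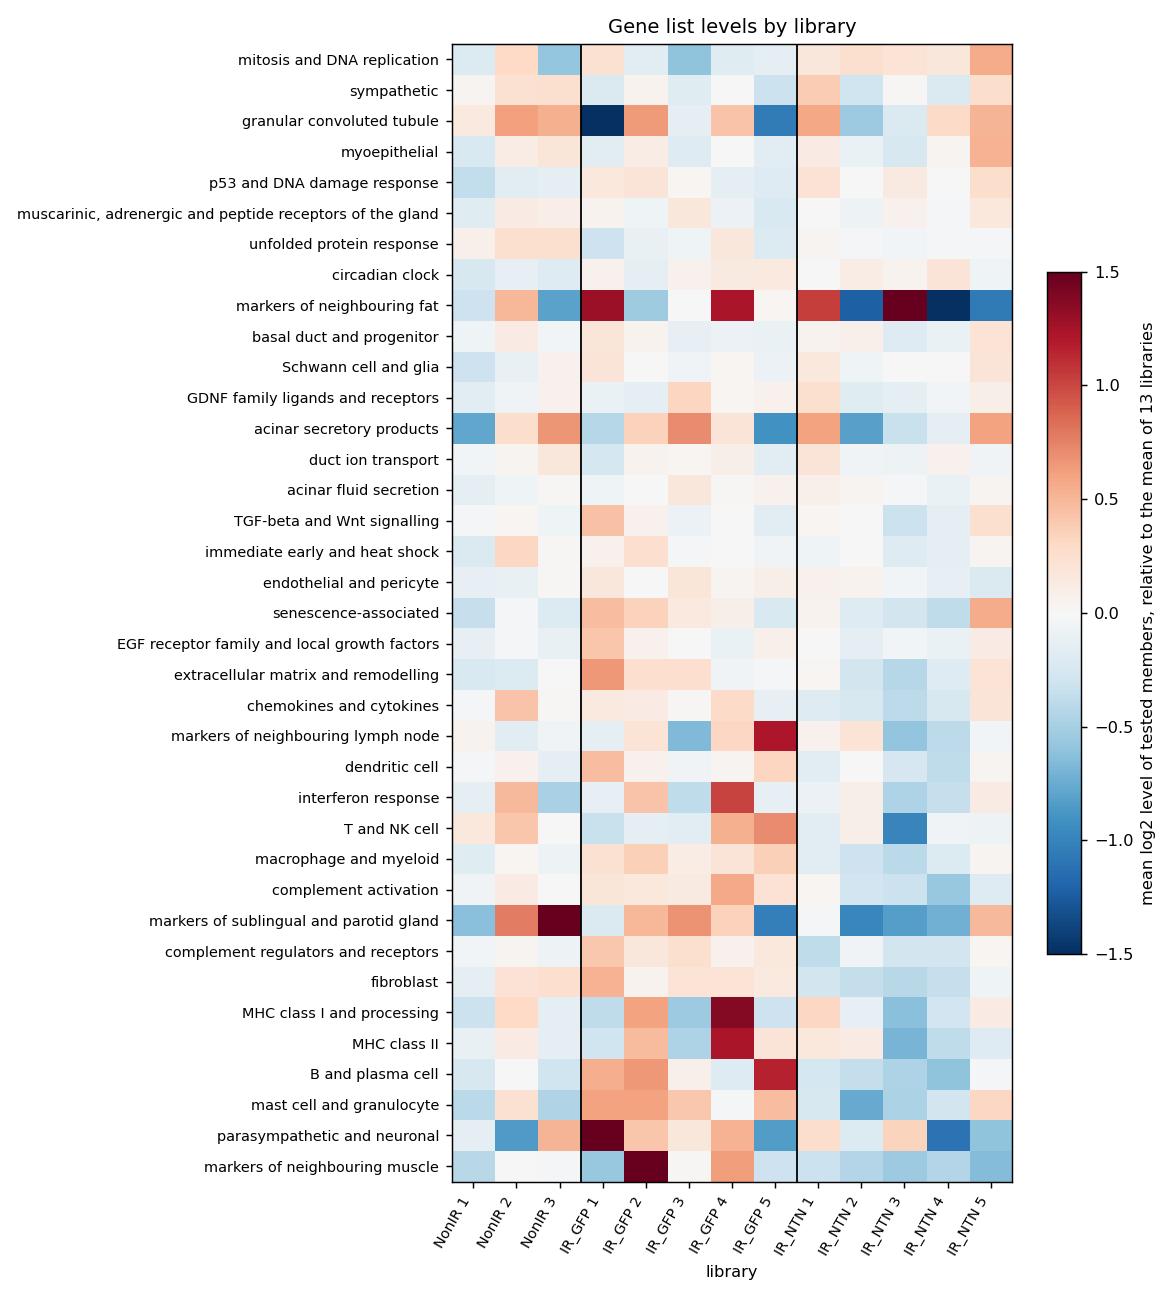
Mean log2 level of the tested members of each gene list (rows) in each of the 13 libraries (columns), relative to the mean of the 13, with colours capped at −1.5 and 1.5. Among the darkest cells are muscle markers in IR_GFP 2, antigen presentation in IR_GFP 4, B cell and lymph node markers in IR_GFP 5 and neuronal genes in IR_GFP 1. Others are fat markers, high in IR_NTN 3 and low in IR_NTN 4, and granular convoluted tubule genes, low in IR_GFP 1. Sublingual and parotid markers were high in NonIR 3.

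Mitosis and DNA replication genes were the list that leaned furthest to the higher side. Of 49 tested, 43 were higher and 6 lower in IR_NTN, at a median log2 fold change of 0.40. None passed, 11 had an unadjusted p under 0.05 on the higher side and 2 were apart. Cdca8, borealin of the chromosomal passenger complex, was at 1.45, 1.45, 1.02, 1.62 and 1.49 CPM in IR_GFP and 3.66, 2.64, 2.77, 2.9 and 3.25 CPM in IR_NTN, with a log2 fold change of 1.11 (SE 0.24, adjusted p = 0.179). Its IR_NTN libraries were also above all 3 NonIR libraries, at 1.3, 2.45 and 0.981 CPM. Plk1, the polo-like kinase of mitosis, stood at 1.37, Cdc20, the activator of the anaphase-promoting complex, at 1.08, and its ubiquitin-conjugating partner Ube2c at 1.43, all 3 below 3 CPM and with overlapping libraries. Topbp1, a replication checkpoint protein outside the list, was at 13.1, 15.2, 12.7, 12.5 and 13.5 CPM and 15.7, 17.6, 20.2, 18.1 and 22.9 CPM, apart, at 0.49 (adjusted p = 0.411). The median of the list was 0.27 without IR_GFP 3, 0.29 without IR_NTN 5 and 0.29 with library totals in place of TMM. Leaving out IR_GFP 1 and 2 gave 44 of 49 higher at a median of 0.59.

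p53 target and DNA damage genes were higher for 20 of 28, at a small median of 0.14 (0.087 without IR_NTN 1), and none passed. Sesn2, a stress-induced sestrin, was at 2.47, 2.24, 2.74, 3.1 and 3.39 CPM in IR_GFP and 5.16, 5.1, 5.13, 4.35 and 3.89 CPM in IR_NTN, apart, at 0.76 (adjusted p = 0.620). Senescence-associated genes were split, with 5 higher and 10 lower of 15 and a median of −0.18 that ran from −0.37 without IR_NTN 5 to −0.069 without IR_NTN 4 and −0.064 without IR_GFP 1, and was 0.078 without IR_GFP 1 and 2.

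Other genes whose IR_NTN libraries lay above all IR_GFP libraries had no list in common, and none passed. Scrn1, secernin, was at 0.870, 0.594, 1.25, 1.62 and 1.9 CPM in IR_GFP and 2.51, 3.46, 2.2, 3.41 and 4.04 CPM in IR_NTN, at 1.31 (SE 0.31, adjusted p = 0.254), with NonIR at 2.46, 4.73 and 5.23 CPM. Tbx3, a transcription factor of gland epithelium, was at 88.3, 64.7, 65.4, 74.6 and 74.2 CPM and 100.2, 105, 95.6, 97.8 and 113 CPM, at 0.48 (SE 0.12, adjusted p = 0.391), with NonIR at 101, 154 and 126 CPM. Car8, a protein of the carbonic anhydrase family, was at 17.6, 12.3, 16.4, 14.2 and 21.3 CPM and 28.6, 31.2, 37.1, 25.8 and 21.6 CPM, at 0.82 (adjusted p = 0.391), with NonIR at 19.2, 38.9 and 42.1 CPM. For Scrn1, Tbx3 and Car8 the IR_NTN libraries overlapped NonIR. The remaining genes so chosen were BC017158 (0.52), Rgl2, an activator of Ral GTPases (0.49), Lrrc36 (1.36), Gpat3, a glycerolipid acyltransferase (0.93), Syne1, a nuclear envelope spectrin-repeat protein (1.22) and Cdr2 (0.87), with adjusted p from 0.374 to 0.541.

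Secretory and ductal lists were near the median of all genes in the fit to all libraries. Acinar secretory products had 11 members higher and 10 lower of 21, at a median of 0.0069. Their median was 0.18 without IR_GFP 3, 0.13 without IR_GFP 4 and 0.10 without IR_NTN 2. It was −0.081 without IR_GFP 1, −0.048 without IR_NTN 1 and −0.12 without the 3 libraries with TMM factors above 1.1. Its sign changed in 6 of 26 alternative settings. Acinar fluid secretion genes had 8 higher and 8 lower of 16, at 0.0021, duct ion transport genes 12 and 11 of 23, at 0.0025, and basal duct and progenitor genes 10 and 8 of 18, at 0.021. Smgc, the submandibular gland protein C, which lies within the Muc19 locus, was among the most abundant transcripts, at 17060.2, 37906, 45704, 57156 and 39262 CPM in IR_GFP and 22195, 78307, 52694, 104102 and 136011 CPM in IR_NTN. The groups overlapped, with a log2 fold change of 0.997 (SE 0.43, adjusted p = 0.804). NonIR libraries were at 98019, 160645 and 98752 CPM. The value of Smgc was the highest of the 21 acinar products tested. Cst10 had the lowest, at −3.98 (−2.07 without IR_GFP 3), and Prol1 stood at −0.035 (0.19 without IR_GFP 3).

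Granular convoluted tubule genes were higher for 19 of 22 at a median of 0.24. That median was 0.066, 0.097, 0.11 and 0.12 without IR_GFP 1, IR_GFP 5, IR_NTN 5 and IR_NTN 1, and 0.43, 0.49 and 0.52 without IR_NTN 2, IR_GFP 4 and IR_GFP 2. Without the 3 libraries with TMM factors above 1.1, 7 were higher and 15 lower, at −0.037. Egf, the growth factor stored in this segment, was at 214, 887, 405, 1336 and 385 CPM in IR_GFP and 1517, 909.8, 618, 1117 and 1208 CPM in IR_NTN, at 0.74 (SE 0.44, adjusted p = 0.887; 1.18 without IR_GFP 4), with IR_GFP 1, 3 and 5 below every IR_NTN library. Myoepithelial genes, of the contractile cells around acini, were higher for 8 of 11 at a median of 0.21, but for 6 of 11 at 0.030 without IR_NTN 5 (0.32 without IR_NTN 2). Tpm2, a tropomyosin, stood at 0.59 (adjusted p = 0.669), the highest value of this list. Of the list's defining markers, Cnn1 stood at 0.24 and Acta2 at −0.071, and the sign of Acta2 changed in 3 of 26 alternative settings.

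Endothelial and pericyte genes were lower for 15 of 21, at a median of −0.17, which was −0.099 without IR_GFP 1, −0.10 without IR_GFP 5 and −0.11 without IR_NTN 5. The members with the lowest p were pericyte genes. Cspg4, the NG2 proteoglycan, was at 2.61, 1.91, 2.35, 2.29 and 3.63 CPM in IR_GFP and 1.65, 1.52, 1.06, 1.09 and 1.19 CPM in IR_NTN, apart, at −0.97 (adjusted p = 0.488), and Rgs5, a regulator of G protein signalling in pericytes, stood at −0.81 (adjusted p = 0.540; −0.52 without IR_GFP 1).

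The list closest to the known role of neurturin is that of parasympathetic and other neuronal genes. Only 10 of 25 had enough reads to test. All 10 were lower in IR_NTN, none passed, and the median of −0.86 rested on IR_GFP 1. Without that library it was −0.16, and without IR_GFP 1 and 2 it was −0.17 with 6 lower and 4 higher. Vip, the peptide transmitter of parasympathetic neurons, was at 4.86, 1.19, 1.17, 1.21 and 0.119 CPM in IR_GFP and 0.717, 0.469, 0.815, 0.0725 and 0.0793 CPM in IR_NTN, at −1.95 (−1.04 without IR_GFP 1). Snap25, of the synaptic vesicle fusion machinery, was at 3.34, 0.858, 0.391, 0.944 and 0 CPM and 0.574, 0.293, 0.652, 0 and 0 CPM, and Stmn2, a neuronal stathmin, stood at −0.74 (adjusted p = 0.816). None of the 10 was higher with the neurturin vector in the fit to all libraries.

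Of 7 listed sympathetic genes 5 were tested, since Th and Dbh were below the filter on low counts. Of those 5, 4 were higher and 1 lower, at a median of 0.29. That median ran from 0.10 without IR_NTN 5 and 0.14 without IR_NTN 3 to 0.47 without IR_NTN 4. The higher genes were Ngfr (0.58), Gata3 (0.35), Ddc (0.29) and Slc18a2 (0.024), and Ngfr is also a member of the Schwann cell list. Slc6a2 was lower, at −0.55, a value whose sign changed without IR_GFP 1. Schwann cell and glial genes were split at 6 higher and 4 lower, at 0.011. Receptors for autonomic transmitters in the gland were higher for 6 of 9, at 0.092. Chrm1, the M1 muscarinic receptor, was at 13.6, 8.71, 9.62, 7.22 and 8.98 CPM in IR_GFP and 8.6, 16.1, 12.2, 12.8 and 13.3 CPM in IR_NTN, at 0.39 (SE 0.18, adjusted p = 0.814). None of these nerve, glia and receptor genes passed.

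Growth factor and signalling lists were mixed. EGF receptor family and local growth factor genes had 11 lower and 7 higher, at a median of −0.18 (−0.075 without IR_GFP 1). Igf1, insulin-like growth factor 1, was at 102 CPM in IR_GFP 1 and between 22.3 and 32.1 CPM in the other 4 IR_GFP libraries, and its log2 fold change of −1.01 was −0.30 without IR_GFP 1. TGF-beta and Wnt genes had 12 lower and 8 higher, at −0.047, which ran from −0.14 without IR_GFP 2 to 0.031 without IR_GFP 1. Tgfbr2, the type II receptor, was at 18.1, 13.6, 14.2, 10.7 and 12.4 CPM in IR_GFP and 9.11, 9.79, 8.15, 8.92 and 9.04 CPM in IR_NTN, apart, at −0.61 (SE 0.15, adjusted p = 0.360). The ligand Tgfb2 stood on the other side, at 0.53 (adjusted p = 0.643), with overlapping libraries.

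Unfolded protein response genes had 13 higher and 10 lower, at a median of 0.059 (0.14 without IR_GFP 4), and circadian clock genes 9 and 9, at 0.055 (0.12 without IR_GFP 5). The clock output genes Tef and Per3 stood at −0.38 and −0.63, with adjusted p of 0.755 and 0.734. Immediate early and heat shock genes had 15 lower and 7 higher, at −0.063 (−0.13 without IR_NTN 2). Fos, an immediate early transcription factor, was at 7.32, 10.5, 1.56, 2.02 and 1.6 CPM in IR_GFP and 0.860, 1.23, 1.22, 0.943 and 1.43 CPM in IR_NTN, apart, at −2.01 (SE 0.60, adjusted p = 0.618). Markers of neighbouring tissue were at 0.038 for fat (7 genes; −0.87 without IR_NTN 3 and 0.35 without IR_NTN 2) and −1.62 for muscle (3 genes; −0.62 without IR_GFP 2), and those of sublingual and parotid gland at −0.48 (5 genes; −0.30 without IR_GFP 3).

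Of the 77 genes followed through the alternative settings, 68 had a value under all 26 settings and 9 under 25, since the stricter filter removed them. The direction was the same in every setting fitted for 74, the exceptions being Gfra3, Ret and Csf1r. Many of the 77 were named for a low p or for libraries that did not overlap, which largely fixes their direction, so that count is no sign of stability. The 77 also leave out some genes named above. Among those, Col1a1 and Prol1 changed direction in 5 of 26 settings each, Slc6a2 in 3 and Bhlha15 in 8. Ngfr, Gata3, Ddc and Cst10, also left out, kept theirs. Of the 77, 17 that did not pass here passed under at least 1 alternative. Several of the named genes share exon bases with an antisense or neighbouring gene (C1s1, Pdgfra, Cdca8, Tbx3, Scrn1, Plk1, Cdc20, Ube2c, Ckm, Egf and Csf1r among them), and the labels and notes do not state whether counting was stranded.

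**Figure D5:**
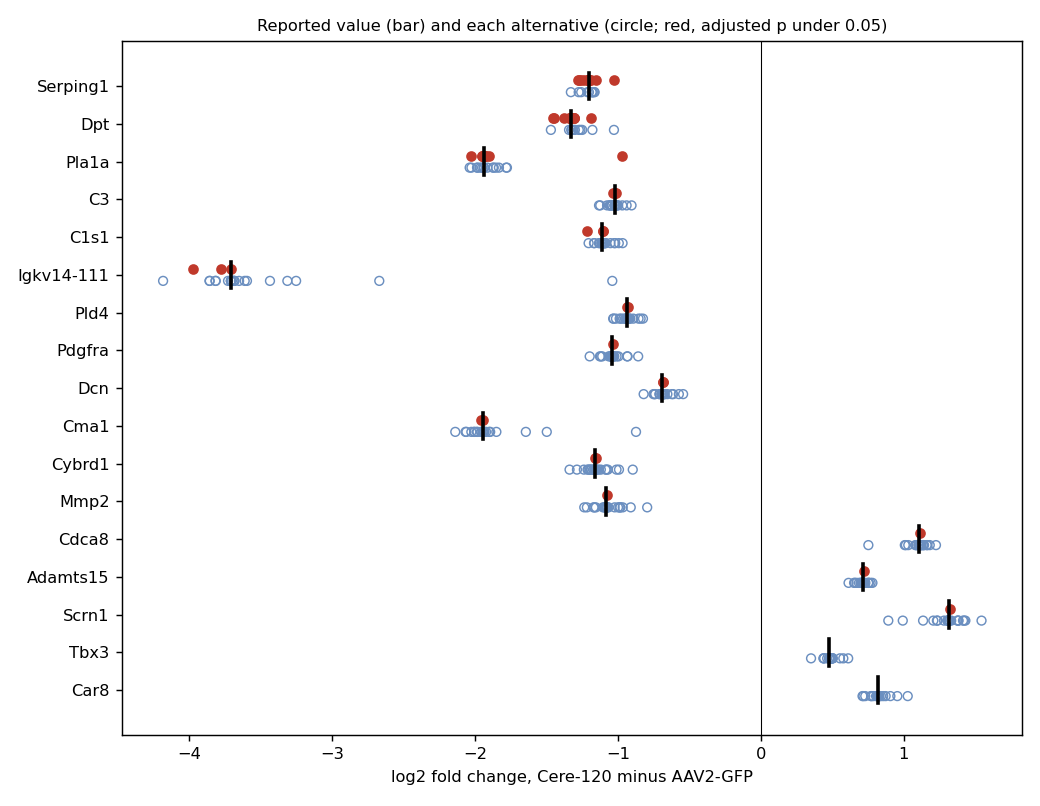
Log2 fold change (Cere-120 minus AAV2-GFP) as reported (black bar) and under each of the 26 alternative settings (25 for Igkv14-111; filled red circles, adjusted p under 0.05; open blue circles, not) for 17 genes. No gene shown crosses 0, and the lone filled circle near −1 for Pla1a is the fit on the log2 of deposited values with a pseudocount of 1.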

How the data were processed

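RNA from 13 submandibular gland libraries was sequenced. Per the labels' protocols, RNA came from a column kit, cDNA from SMART-Seq v4 and libraries from Nextera XT, sequenced with a NextSeq instrument. Alignment used STAR 2.5.2a and the build GRCm38.p3 (mm10), per the submitters' processing notes. The read counting tool and its strand setting are not stated there. Where the series text differs from the sample labels (instrument, aligners, triplicates), the labels were used. The authors deposited raw read count values for 48709 genes and 24 spike-in and transgene sequences, which were left out of library sizes and took at most 5.85e-05% of reads. The authors also deposited normalised signal values, used for symbols and for 1 alternative.

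Genes were filtered with filterByExpr by group, which left 14727, and scaled by TMM. The robust quasi-likelihood F test of edgeR 4.0.16 (R 4.3.3; legacy off) was fitted to all 13 libraries, with 10 residual degrees of freedom and Benjamini-Hochberg adjustment over all genes (two-sided, threshold 0.05). Adjusted p-values in the text come from edgeR where no tool is named beside them. SE was the log2 fold change over the root of F. The script was tested on simulated counts. A count of 0 allows 3 reads, and such limits cover counting error only, since PCR reads without molecular identifiers are not independent molecules.

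The comparison, its gene lists (37 lists, 753 genes, 603 tested) and the tests were chosen with earlier results of these data known. Named genes were every gene past the threshold, the 12 of lowest p in each direction with at least 1 CPM and libraries apart, the GDNF family, and each list's defining members and 4 of lowest p; the text gives those that carry each group. Alternatives changed the scaling, filter, tool (DESeq2 1.42.0, limma 3.58.1), input values, block and libraries, and 2 sets of left-out libraries were added after seeing the data. Positions came from GENCODE release M21 and promoters from RefSeq (GRCm38.p6). Serping1 and Pla1a were not among the promoters used here.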

Additional observations from a re-analysis of the deposited data

Results flagged for a closer look

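Within groups of 5, Dixon's test at the 95% level was run on the TMM-scaled level of each named gene and on each list mean, 228 groups in all. Chance gives about 1 in 20 such groups, and 14 stood out. Values of genes are in CPM, and values of lists are mean log2 levels relative to the 13 libraries.

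IR_GFP 1 stood above the other 4 IR_GFP libraries for Igf1 (102 against 22.3 to 32.1), Lum (57.7 against 16.9 to 27.5), Cd209a (7.61 against 1.21 to 2.79), Vip (4.86 against 0.119 to 1.21) and Snap25 (3.34 against 0 to 0.944). IR_GFP 2 stood above them for Ckm (43.9 against 1.31 to 2.67) and below them for Smoc2 (8.51 against 12 to 13.3). IR_GFP 5 stood above for Adgre1 (52.9 against 12.8 to 15.2) and Cxcl13 (4.81 against 0.469 to 1.25). IR_GFP 4 stood above for the complement activation list (0.57 against 0.13 to 0.22), and IR_GFP 3 stood below for Cdca8 (1.02 against 1.45 to 1.62).

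In the neurturin arm, IR_NTN 2 stood above the other 4 for C4b (4.22 against 1.82 to 2.32), IR_NTN 3 below for the T and NK cell list (−0.99 against −0.16 to 0.093) and IR_NTN 5 above for the mitosis and DNA replication list (0.56 against 0.17 to 0.24).

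Outside the gene table, the entry for beta-lactamase, a gene of cloning plasmids, held 6 reads in IR_NTN 2, the most in any library. IR_NTN 1 held as many in a larger library. As a share of reads, IR_NTN 2 was above every NonIR library, by a margin that rests on very few reads. Over the 3 groups it held 12 reads in NonIR, 11 in IR_GFP and 15 in IR_NTN.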

How the results depend on the processing

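The comparison called 3 genes. Settings that moved this count by more than 1.5 times were the following. edgeR called 0 genes with the 10 irradiated libraries alone (909 at an unadjusted p under 0.05), 0 with library totals in place of TMM (573), and 0 without the 3 libraries with TMM factors above 1.1 (931; chosen after seeing the data). It called 10 with no filter and 1, Dpt, without IR_GFP 1 and IR_GFP 2 together (chosen after seeing the data). limma-voom called 0 (833 at an unadjusted p under 0.05) and DESeq2 called 38, of which 35 were lower. Leaving out 1 library at a time gave between 0 and 11 genes. The count was 0 when IR_GFP 1, IR_NTN 1, IR_NTN 4 or IR_NTN 5 was dropped (681 to 949 at an unadjusted p under 0.05), 1 when IR_GFP 5, IR_NTN 2 or IR_NTN 3 was, and 11 when IR_GFP 4 was. The replicate block is given further on, and each remaining setting called 2 to 4 genes. Fewer libraries enter several of these fits, and otherwise the cause was not tested.

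Library totals moved the share of genes on the lower side from 52.7% to 66.9%. The replicate block called 0 genes (659 at an unadjusted p under 0.05). Same-numbered libraries of the 2 arms did not deviate together (correlations of −0.37, −0.27, −0.16, 0.21 and −0.43 for numbers 1 to 5, with no library closest to its own number), so the numbers were not taken as pairs.

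Of the 77 genes followed through these settings, 9 had no value under the stricter filter and 3 changed direction. Col1a1, Prol1, Slc6a2 and Bhlha15, named above but not among the 77, also changed direction in some settings. Csf1r was at 0.020 without the libraries of high TMM factor. Ret was at −0.058 without IR_GFP 1 and 2, and between −0.0088 and 0.19 without 1 library at a time. Gfra3 was at −0.045 with library totals, −0.069 without the libraries of high TMM factor and −0.16 without IR_GFP 1 and 2, and between −0.11 and 0.12 without 1 library at a time. Genes near 1 CPM rest on few reads. In the simulated counts 27 of 50 genes set to a 2-fold change and 7 of 50 set to a 1.5-fold change were called. Differences of those sizes were detectable in part under the settings of that simulation, which changed only genes of at least 1 CPM. It changed many genes together and held no shift shared by the genes of a library, so these shares may overstate the reach here.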
